A study of Mus musculus with 2 samples.

Results

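The 7 genes described here encode what tuft cells are known to send out: the cytokine IL-25 (Il25), the enzymes that make cysteinyl leukotrienes (Alox5, Alox5ap, Ltc4s), the enzymes that lead to prostaglandin D (Ptgs1, Hpgds) and choline acetyltransferase (Chat), which makes acetylcholine. They were taken by gene symbol, 7 of the 55487 genes counted, and each symbol named 1 gene. Medullary thymic epithelial cells (mTECs) show developing T cells the proteins of other organs, and after the stage that expresses Aire some of them come to resemble cells of those organs, tuft cells among them. The study asked how injected spermidine, a polyamine, changes RNA levels in mTECs. All mice were wild-type female C57BL/6J mice aged 4 weeks, and no allele or transgene was named. The PBS group received phosphate-buffered saline by intraperitoneal injection on each of 7 days, and the spermidine group received spermidine at 15 mg/kg in the same buffer on the same schedule. After depletion of CD45-positive cells, mTEChi cells and the mTEClo cells that are past the Aire stage were sorted, which bars any statement on the mTECs left out by the gates. There were 4 hashed samples, 2 per treatment, tagged with hashtag antibodies and pooled into 1 droplet run, and no label says whether the replicates are different mice. The p-values therefore reflect the spread between hashed samples alone, which may be technical. In a fit that leaves 1 sample out, the lone sample of a group is assumed to vary like the other group.

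Tuft cells are rare chemosensory epithelial cells of gut, airway and thymus that need the POU factor Pou2f3 to form and signal through the ion channel Trpm5. In the gut they sense parasites and release IL-25, which acts on group 2 innate lymphoid cells through a receptor that contains Il17rb. They also make cysteinyl leukotrienes, which act beside IL-25, and prostaglandin D, and they are a source of acetylcholine outside nerves. Alox5 oxidises arachidonic acid, Alox5ap presents that acid to it at the nuclear membrane, and Ltc4s joins the product to glutathione. Ptgs1 is cyclooxygenase 1, which makes the prostaglandin precursor, and Hpgds turns that precursor into prostaglandin D.

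All positions are on GRCm38, from the GENCODE M21 annotation. Il25 lies on the plus strand of chromosome 14 at chr14:54932695-54935837 and Chat on the minus strand of the same chromosome at chr14:32408203-32465989. Alox5 lies at chr6:116410077-116461178 and Hpgds at chr6:65117293-65144908, both on the minus strand. Alox5ap lies on the plus strand at chr5:149264767-149288153, Ltc4s on the minus strand at chr11:50236461-50238616 and Ptgs1 on the plus strand at chr2:36230426-36252272. All 7 are protein-coding genes. Slc18a3, the vesicular acetylcholine transporter, lies inside the Chat gene on the same strand, and 29 of its UMIs were counted in tuft-like cells against 3779 of Chat. Genes on the opposite strand overlap Alox5ap, Ltc4s, Ptgs1, Hpgds and Chat. How reads shared by overlapping genes were counted was not stated.

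The RefSeq promoter table (GRCm38.p6, 250 bases before to 50 after the start of a gene) held Alox5, Ltc4s, Ptgs1, Hpgds and Chat, and not Il25 and Alox5ap. They were searched for the octamer ATGCAAAT, the site that POU factors are known to bind, on both strands. The octamer stood in 1.74% of the 32851 promoters in the table, and in 1 of these 5, that of Hpgds, where its first base lay at -174 from the RefSeq start on the strand of the gene. GENCODE M21 starts Hpgds farther out, at 65144908 in place of 65144730. Thus 178 of the 250 bases before the RefSeq start, the octamer included, lie inside the GENCODE gene. A match is a description of letters and no match says only that these letters are not in this window. The sequences are printed 5′ to 3′ with the octamer in capitals. For Hpgds, whose level lay on the other side of PBS from the remaining 6 genes in tuft-like cells, the 30 bases around the octamer are shown, at chr6:65144886-65144915 on the minus strand. For Ptgs1, the enzyme before it in the same pathway, and Alox5, the head of the leukotriene branch, RefSeq and GENCODE give the same start, and the 250 bases before it are shown, at chr2:36230176-36230425 on the plus strand and chr6:116461179-116461428 on the minus strand.
Hpgds: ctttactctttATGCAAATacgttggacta
Ptgs1: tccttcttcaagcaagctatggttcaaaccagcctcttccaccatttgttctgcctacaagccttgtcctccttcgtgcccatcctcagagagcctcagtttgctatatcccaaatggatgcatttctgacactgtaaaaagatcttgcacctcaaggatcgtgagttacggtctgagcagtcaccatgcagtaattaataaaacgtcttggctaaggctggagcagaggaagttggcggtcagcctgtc
Alox5: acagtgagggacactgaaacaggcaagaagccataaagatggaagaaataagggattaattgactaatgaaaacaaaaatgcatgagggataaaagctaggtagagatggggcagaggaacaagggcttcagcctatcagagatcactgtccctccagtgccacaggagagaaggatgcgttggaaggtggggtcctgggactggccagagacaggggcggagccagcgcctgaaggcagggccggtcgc

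After filtering and assignment by hashtag, the 4 samples held 778 to 1099 cells each, 3739 in all, with 13316095 to 19893017 UMIs (unique molecular identifiers, counts of RNA molecules) per sample. Clustering gave 18 clusters, and 4 of them were tuft-like. None of the 7 genes was among the 2000 variable genes used for it. The tuft-like class held 374 and 220 cells with PBS and 232 and 165 with spermidine, or 5245447, 2818584, 2807072 and 2250185 UMIs, and its share of cells was 34.7% and 28.1% with PBS and 21.1% and 21.2% with spermidine. The 4 clusters had Trpm5 at 644 to 901 CPM and Pou2f3 at 459 to 574 CPM, against 16.6 and 20.7 in the thymocyte-like cluster. Outside the class Trpm5 was highest in muscle-like cells (115) and Pou2f3 in keratinocyte-like cells (198). Both genes are on the marker list that named the class, so their levels describe it and are no separate support for the name. Levels below are in CPM, the UMIs of a gene per 1000000 UMIs of the cells named. They were counted at the 3′ end of transcripts and are compared between cells, not between genes.

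The 7 genes were mostly read from tuft-like cells, and they lay together in the same cells. Of all UMIs of each gene in assigned cells, the tuft-like class held 93.7% for Chat, 92.7% for Il25, 92.1% for Alox5, 90.1% for Alox5ap, 89.9% for Ptgs1, 80.3% for Ltc4s and 67.1% for Hpgds. In all other cells together the level was 2.24 ± 0.491 for Il25, 4.97 ± 0.650 for Chat, 9.88 ± 2.81 for Ptgs1, 12.0 ± 3.77 for Alox5, 25.9 ± 3.05 for Alox5ap, 36.6 ± 8.10 for Ltc4s and 39.2 ± 4.13 for Hpgds (CPM, SD, n = 4). In tuft-like cells the same values were 105 ± 40.6 for Il25, 284 ± 24.0 for Chat, 348 ± 40.3 for Ptgs1, 554 ± 54.5 for Alox5, 899 ± 104 for Alox5ap, 575 ± 46.1 for Ltc4s and 315 ± 23.8 for Hpgds. The genes that shape the clusters come from the same cells, so these differences between classes are a description with no test. Mast cells and basophils are known to carry Alox5, Alox5ap, Ltc4s and Hpgds too, and their defining markers were near 0 in tuft-like cells: over the 4 samples there was 1 UMI of Cpa3 and there were 4 of Ms4a2 and 0 of Mcpt8. Of that list only Kit was above the filter on low counts, at 268 CPM.

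**Figure D1:**
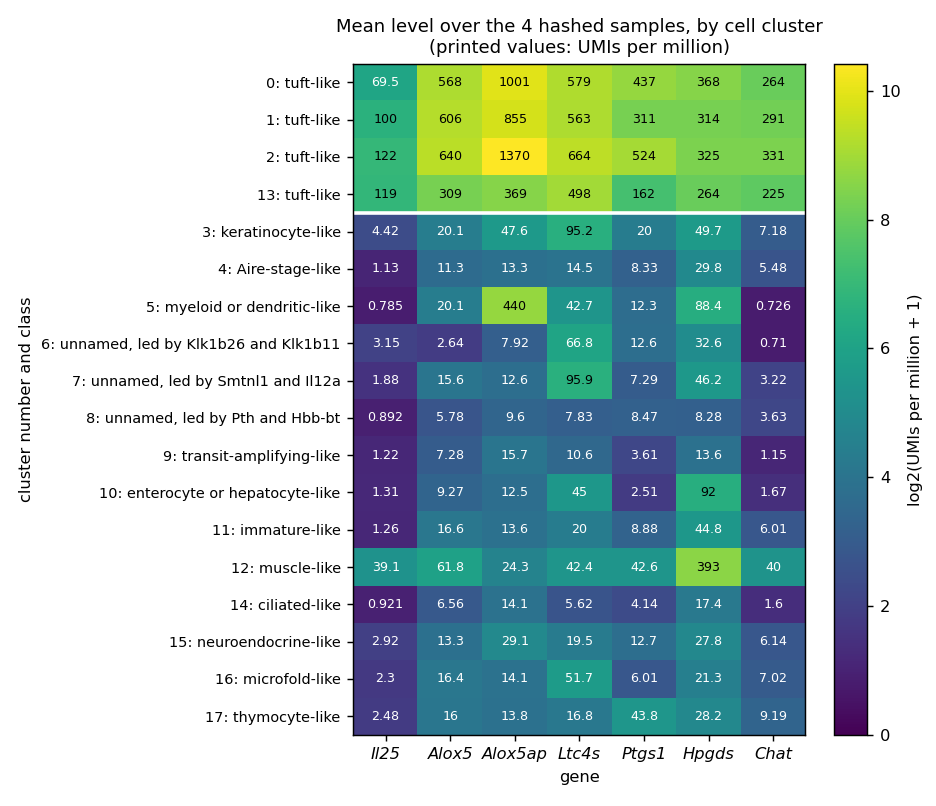
Mean level of each gene (columns) in each of the 18 cell clusters (rows), in CPM averaged over the 4 hashed samples, with colour on the log2(CPM + 1) scale. The 4 tuft-like clusters above the white line are high for all 7 genes, and Alox5ap in the myeloid or dendritic-like cluster (440) and Hpgds in the muscle-like cluster (393) are the other values above 100.

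Exceptions stood outside the tuft-like class. Alox5ap, which white blood cells of the myeloid line are known to express, was at 470 and 409 with PBS and 377 and 503 with spermidine in the 68 myeloid or dendritic-like cells, a range that overlapped that of tuft-like cluster 13. After thinning to 5000 UMIs per cell, 73.6% of the 53 deep enough cells of that cluster had an Alox5ap UMI, with a 95% exact binomial interval of 59.7 to 84.7% that covers counting error only. Alox5 was at 20.1 ± 22.5 (SD, n = 4) and Ltc4s at 42.7 ± 30.1 (SD, n = 4) in the same cells.

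Hpgds was as high in muscle-like cells as in tuft-like ones. Its level there was 316 and 577 with PBS and 349 and 329 with spermidine, and 18 of 29 muscle-like cells at 5000 UMIs had it (62.1%, 95% exact interval 42.3 to 79.3%). These values rest on 11, 5, 7 and 6 cells. The range overlapped that of tuft-like cluster 0, so the order of the 2 is not settled. The other 6 genes were at 24.3 to 61.8 in muscle-like cells. Tuft markers were split there. Trpm5 was at 115 and Pou2f3 at 119, against 644 to 901 and 459 to 574 in the tuft-like clusters. Gnat3 was at 415, above tuft-like clusters 0 (242) and 2 (375) and below clusters 1 (1538) and 13 (4808). Dclk1 was at 26.1, against 845 to 5564 in the tuft-like clusters. The part of tuft RNA in the Hpgds value was not tested. Il25 UMIs in muscle-like cells came nearly all from PBS, 8 and 16 against 1 and 0, in a handful of cells. Ltc4s stood at 95.9 ± 18.4 (SD, n = 4) in an unnamed cluster led by Smtnl1 and Il12a and at 95.2 ± 46.3 (SD, n = 4) in keratinocyte-like cells, which overlapped each other and lay below every tuft-like value.

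Shares of cells with a UMI were compared after thinning each cell to 5000 UMIs, which left 892 of 991 tuft-like cells and 2413 other cells. Of the tuft-like cells 86.3% had a UMI of Ltc4s, 84.0% of Alox5, 82.8% of Alox5ap, 70.2% of Hpgds, 70.1% of Ptgs1, 66.5% of Chat and 25.8% of Il25. Unthinned, the shares were 94.7, 91.3, 87.1, 86.0, 80.3, 79.6 and 40.6% in the same order. Other cells had a UMI in 12.1% of cells for Ltc4s, 4.39% for Alox5, 6.92% for Alox5ap, 12.4% for Hpgds, 3.77% for Ptgs1, 1.66% for Chat and 1.04% for Il25. Thymocyte-like cells were taken as a background, but that they lack all 7 genes was not tested. Their cluster also had UMIs of the epithelial gene Epcam (331 CPM). Its Ptgs1 level, 43.8 ± 72.0 CPM (SD, n = 4) with 151 in 1 sample, was the highest outside the tuft-like class. Of the 59 thymocyte-like cells deep enough for the same 5000 UMIs, 1 had Il25, 3 had Alox5 and 2 each had Alox5ap, Ptgs1 and Hpgds. None had Ltc4s or Chat, where a count of 0 allows up to 5.08%. The median depth before thinning was 6469 UMIs in the thymocyte-like cluster and 10313 to 12676 per sample in tuft-like cells. The pooled shares of Il25 and Alox5 in other cells were at or below those in thymocyte-like cells, so these pooled shares are not read as expression, with only 1 and 3 cells behind that comparison. Those of Alox5ap and Ptgs1 lay inside the 95% exact intervals of the thymocyte-like cells, that of Chat lay under 5.08%, and those of Ltc4s and Hpgds lay above 5.08% and above an upper bound of 11.7%. A pooled share does not speak for single classes. In muscle-like cells Alox5 was at 61.8 ± 45.0 and Il25 at 39.1 ± 58.3 CPM (SD, n = 4). In thymocyte-like cells they were at 16.0 ± 16.6 and 2.48 ± 4.97.

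Most tuft-like cells carried several of the genes at once. The median tuft-like cell had 5 of the 7, no tuft-like cell had none, and 84.6% had 4 or more. Outside the class the median was 0, and 1.04% of cells had 4 or more. The leukotriene set, Alox5 with Alox5ap and Ltc4s, was complete in 64.6% and 68.7% of tuft-like cells with PBS and in 61.6% and 57.7% with spermidine, against 0.539% of other cells. Ptgs1 and Hpgds were found together in 49.6% and 52.3% with PBS and 51.2% and 49.0% with spermidine, values that overlapped. All 7 were found in 69 of the 892 cells (7.74%) and in 0 of 2413 others. Cells with an Il25 UMI had the other genes at somewhat higher shares than cells without. Alox5 was found in 88.3% against 82.5% and Ptgs1 in 74.8% against 68.4%, each higher in 4 of 4 samples, and Hpgds in 73.5% against 69.0%, higher in 2 of 4.

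Levels of the 6 genes other than Il25 differed among the 4 tuft-like clusters. Cluster 0 was led by Dclk1 and Sh2d6, cluster 1 by Adh1 with Rgs13 and Bmx, cluster 2 by Agbl1, Frmpd4 and Nrgn, and cluster 13 by Rgs21, Gnat3, a part of the taste transduction pathway, and the bitter receptor Tas2r105. By mean level cluster 13 was lowest for the 6 genes other than Il25, and cluster 2 was highest for all but Hpgds. These differences are given as descriptions, with no test. Alox5ap was at 1424 and 1473 with PBS and 1263 and 1320 with spermidine in cluster 2, and at 371, 455, 189 and 463 in cluster 13, so no sample of one reached the other. The ratio of the means was 3.71. Ptgs1 followed the same order, with 524 ± 66.9 (SD, n = 4) in cluster 2, 437 ± 44.2 in cluster 0, 311 ± 36.8 in cluster 1 and 162 ± 69.9 in cluster 13. Each step in that order was seen in 4 of 4 samples, but the ranges of clusters 2 and 0 overlapped.

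Alox5 separated cluster 13 only. It was at 640 ± 42.9 in cluster 2, 606 ± 80.6 in cluster 1 and 568 ± 84.0 in cluster 0, with overlapping ranges, and at 309 ± 23.8 in cluster 13 (SD, n = 4). Ltc4s was flatter, from 664 ± 49.7 in cluster 2 to 498 ± 93.7 in cluster 13, and those ranges overlapped although cluster 2 was higher in 4 of 4 samples. Hpgds went from 368 ± 55.1 in cluster 0 to 264 ± 37.3 in cluster 13, and Chat from 331 ± 15.4 in cluster 2 to 225 ± 27.6 in cluster 13, higher in 4 of 4 samples each. Il25 had no clear order: the cluster means were 122, 119, 100 and 69.5 for clusters 2, 13, 1 and 0, and every neighbouring pair overlapped. These ranges hold both treatments. Within samples, cluster 0 was higher than each of clusters 1, 2 and 13 in 1 of 4, and cluster 2 was higher than cluster 13 in 1 of 4. The cells shared the pattern of the sums. The complete leukotriene set was found in 77.5% of cells of cluster 2 and 26.8% of cluster 13, and Ptgs1 with Hpgds in 59.9% and 26.1%, while Il25 was found in 24.7% and 26.8%. Cluster 0 had the shallowest tuft-like cells, with a median of 7731 UMIs against 17358 in cluster 13, and the shares above were thinned to one depth.

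**Figure D2:**
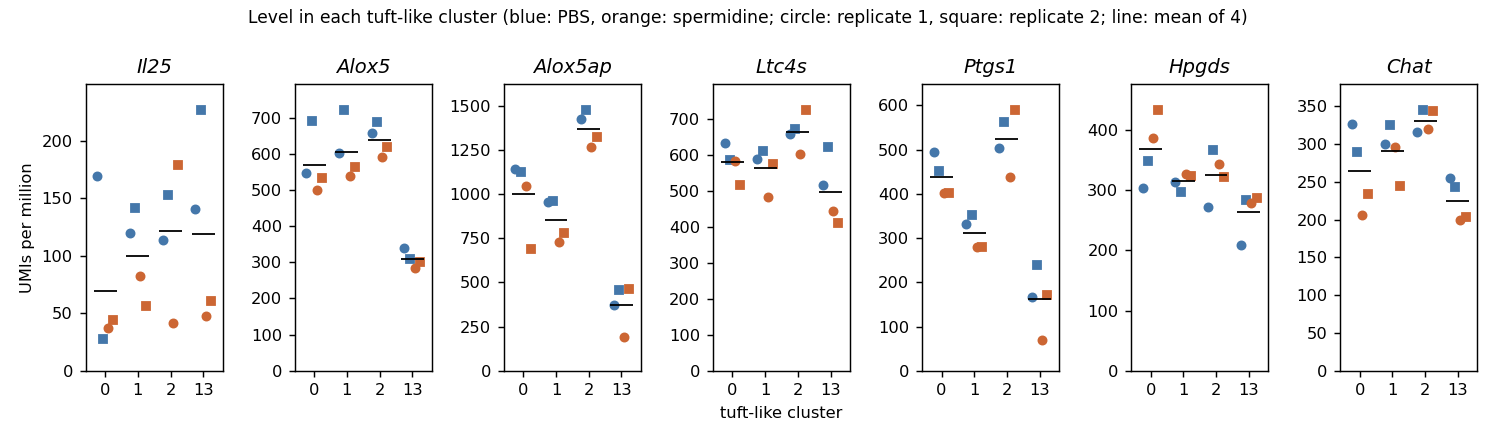
Level of each gene in the 4 tuft-like clusters (x axis, cluster number), in CPM on a linear axis from 0, with 1 point per hashed sample and a line at the mean of 4. Alox5, Alox5ap and Ptgs1 sit lowest in cluster 13 in every sample, and the Il25 points of the 4 clusters overlap.

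Spermidine was set against PBS in the summed tuft-like cells, and Il25 was the member that fell. It stood at 129 and 148 CPM with PBS and at 61.6 and 80.0 with spermidine. Both spermidine samples were below both PBS samples, and the mean went from 138 ± 13.9 to 70.8 ± 12.98 (SD, n = 2 each). The log2 fold change was -0.95 with a standard error (SE) of 0.135, and edgeR's quasi-likelihood test with Benjamini-Hochberg adjustment over 12736 genes gave an adjusted p of 0.0359. Il25 was rank 8 by p, and 12 of the 12736 genes were called, or 0.0942%, 10 higher and 2 lower. That count depended on the samples: it was 41 and 26 without PBS replicate 1 or 2 and 343 and 486 without spermidine replicate 1 or 2. The call of Il25 was lost under some settings: without PBS replicate 2 the value was -0.84 with an edgeR adjusted p of 0.0527, and with a limit of 10% on mitochondrial UMIs in place of 15% it was -1.07 with an edgeR adjusted p of 0.0649.

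The difference in Il25 appeared in both the share of cells and the amount per cell. At 5000 UMIs the share with an Il25 UMI was 29.6% and 27.2% with PBS and 21.7% and 20.8% with spermidine, which did not overlap. The two-sided exact permutation test gave p = 0.3333, the smallest that 2 against 2 samples allow, and 0.467 after adjustment over the 7 genes. Cells with Il25 held 2.12 and 2.36 UMIs each with PBS and 1.30 and 1.81 with spermidine. Both together gave 0.626 and 0.641 Il25 UMIs per cell with PBS and 0.281 and 0.376 with spermidine. Cells with many Il25 UMIs were mostly in the PBS samples: 17 of 374 and 10 of 220 cells had 10 or more before thinning, against 1 of 232 and 4 of 165. A single cell held 5.48% and 12.7% of the Il25 UMIs of the PBS samples and 6.36% and 13.9% of those of the spermidine samples. With each count in a cell capped at the 99th percentile of the nonzero counts of that gene, the log2 fold change was -0.89 with an edgeR adjusted p of 0.0119.

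**Figure D3:**
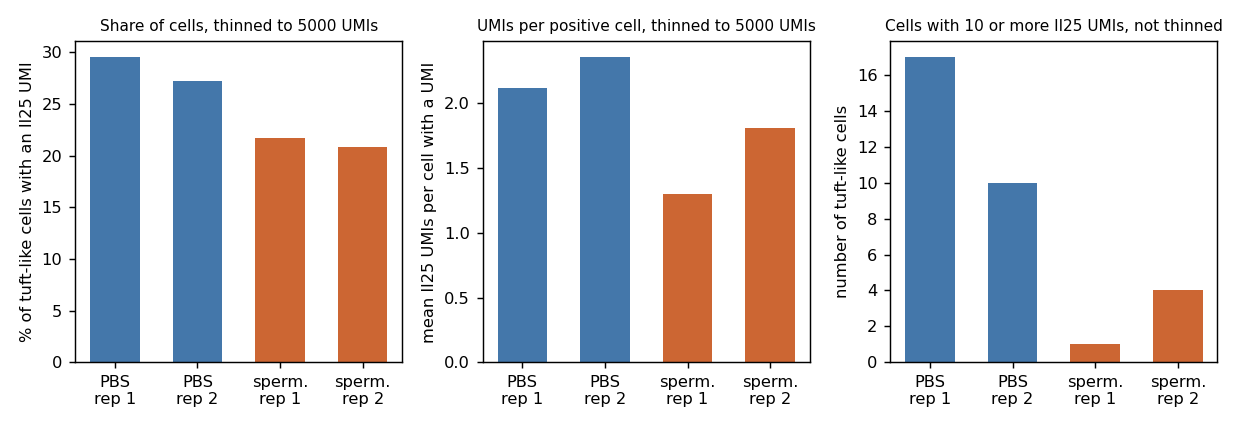
Il25 in tuft-like cells of each hashed sample: the share of cells with a UMI and the mean UMIs per such cell, both thinned to 5000 UMIs, and the number of cells with 10 or more UMIs before thinning, on linear axes from 0. The PBS bars (29.6% and 27.2%, 2.12 and 2.36, 17 and 10) stand above the spermidine bars (21.7% and 20.8%, 1.30 and 1.81, 1 and 4).

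None of the other 6 genes was called in the fit over all 4 samples. For each of them the groups did not overlap in tuft-like cells. Of the 12736 genes tested, 23.4% were likewise lower in both spermidine samples than in both PBS samples, and 18.2% were higher. The leukotriene genes stood below PBS in both spermidine samples. Alox5ap was at 966 and 1010 with PBS and 804 and 817 with spermidine, a log2 fold change of -0.26 (SE 0.0746) with an edgeR adjusted p of 0.278. Without spermidine replicate 1 or 2 its value was -0.26 or -0.27. Alox5 was at 556 and 629 with PBS and 505 and 525 with spermidine, a log2 fold change of -0.18 (SE 0.0862), edgeR adjusted p 0.510. Ltc4s was at 595 and 625 with PBS and 517 and 566 with spermidine, a log2 fold change of -0.15 (SE 0.0797), edgeR adjusted p 0.552. Each was 82.0 to 88.7% of its PBS mean, where Il25 was 51.1%.

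The prostaglandin enzymes did not lie on one side. Ptgs1 was at 357 and 395 with PBS and 297 and 343 with spermidine, a log2 fold change of -0.21 (SE 0.0932), edgeR adjusted p 0.468. Without spermidine replicate 1 or 2 it was -0.12 or -0.31. Hpgds, the next enzyme, was at 281 and 317 with PBS and 329 and 334 with spermidine, a log2 fold change of 0.17 (SE 0.0874), edgeR adjusted p 0.532. Its share of cells at 5000 UMIs was 67.0% and 66.7% with PBS and 75.4% and 75.2% with spermidine, and that of Ptgs1 was 71.3% and 76.9% against 63.5% and 67.1%. Chat was at 297 and 310 with PBS and 275 and 256 with spermidine, a log2 fold change of -0.17 (SE 0.0828), edgeR adjusted p 0.517, and its share of cells was 71.3% and 69.2% against 62.1% and 57.7%. For these shares, and for Alox5, the exact permutation p was 0.3333, and for Alox5ap and Ltc4s, whose shares overlapped, it was 0.667.

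In all, 6 of the 7 genes were lower in both spermidine samples than in both PBS samples, where 23.4% of the 12736 genes tested were, and 1 was higher in both, where 18.2% were. The median log2 fold change of the 7 was -0.18, and that of all tested genes -0.00407. With 1 sample left out at a time the values kept their sign, from -0.29 to -0.08 for Alox5, -0.22 to -0.10 for Ltc4s, -0.31 to -0.12 for Ptgs1, -0.23 to -0.12 for Chat and 0.07 to 0.27 for Hpgds. The tuft markers, a list that leaves the members out, were also mostly lower: of 16 tested edgeR called 0 (3 had an unadjusted p under 0.05), 13 were below and 3 above 0, and their median was -0.11. Lrmp had -0.28, Sh2d6 -0.25 and Gnat3 -0.22, while Dclk1 had 0.18 and Pou2f3 0.13. The summed level of that list was 18170 and 17972 CPM with PBS and 15849 and 17713 with spermidine.

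Levels of some markers of other cell types moved with the groups in tuft-like cells, and their part in these results was not tested. The sum of 11 neuroendocrine markers was 121 and 103 CPM with PBS and 223 and 140 with spermidine. Most of that difference lay in 1 gene, Resp18, at 36.2 and 37.3 with PBS and 116 and 69.3 with spermidine. Of the 6 tested genes of that list only Resp18 was called, and 4 were above and 2 below 0. The sum of 10 muscle markers was 90.7 and 95.8 with PBS and 50.6 and 69.8 with spermidine, with Tnnc2 at 0. The sum of 10 goblet or secretory markers was 1835 and 2082 against 1374 and 1726, and that of 10 microfold markers 1336 and 1268 against 1070 and 1174. Of the microfold list, Gp2 and Spib were higher in tuft-like cells (322 and 296 CPM) than in all other cells (150 and 147). The remaining microfold markers were lower there, with Ccl20 at 15.0 against 523. Neither muscle, goblet nor microfold lists had a called gene. Myeloid markers overlapped, at 116 and 76.6 against 45.6 and 210, nearly all of it Lyz2.

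**Figure D4:**
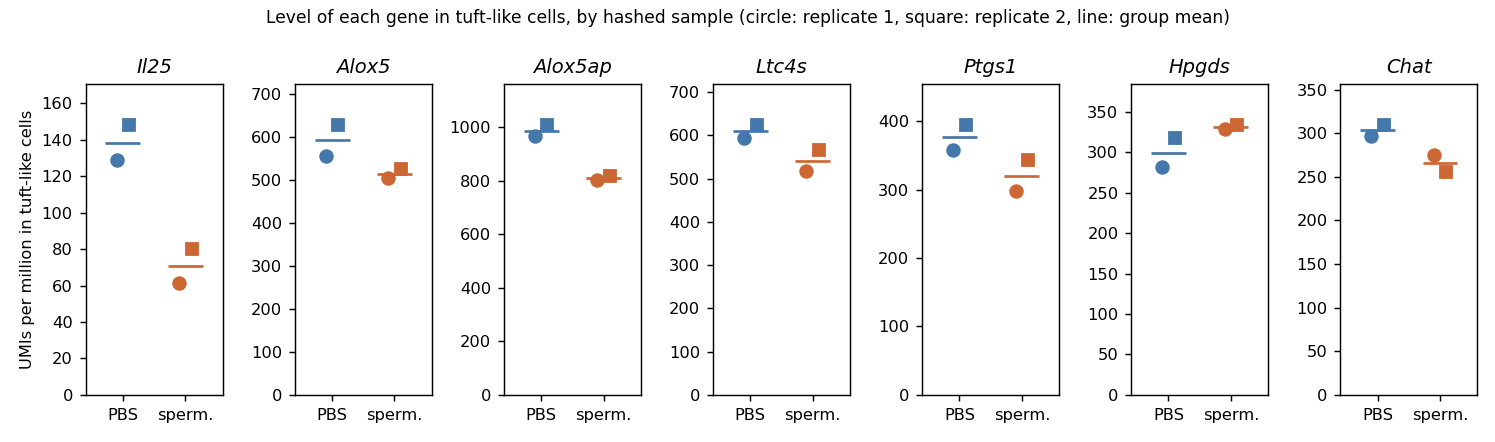
Level of each of the 7 genes in the summed tuft-like cells of each hashed sample, in CPM on linear axes from 0 (circle replicate 1, square replicate 2, line group mean of n = 2). In each panel the spermidine points lie on one side of the PBS points, below them for 6 genes and above them for Hpgds. Only Il25 (129 and 148 against 61.6 and 80.0) was called in the fit over all 4 samples. Of all genes tested 23.4% lay below and 18.2% above in the same way.

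By p the genes ahead of Il25 were led by Gm6999, at 193 and 226 CPM with PBS and 373 and 366 with spermidine, H2-M2, at 17.3 and 20.6 against 44.2 and 55.6, and Tafa1, at 331 and 280 against 614 and 497. The other gene that fell was Ccl1, a chemokine, from 12.4 and 9.22 to 0.713 and 0.889, a log2 fold change of -3.71 with an edgeR adjusted p of 0.0326. The next gene below 0 by p, Etv1, a transcription factor, was at 98.9 and 127 with PBS and 57.7 and 63.1 with spermidine, with an edgeR adjusted p of 0.0654.

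Within single tuft-like clusters edgeR called no member over all 4 samples. In cluster 13 Il25 was at 141 and 227 with PBS and 47.8 and 61.0 with spermidine, a log2 fold change of -1.72 (SE 0.307), with an adjusted p of 0.0651 in edgeR and of 0.0281 in DESeq2. In cluster 1 it was at 120 and 142 with PBS and 82.2 and 56.6 with spermidine, a log2 fold change of -0.86 (SE 0.200), edgeR adjusted p 0.221. The groups did not overlap in either cluster. With 1 sample left out at a time, Il25 ran from -2.04 to -1.34 in cluster 13 and from -1.17 to -0.62 in cluster 1.

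In clusters 0 and 2 the Il25 values rested on single samples. Cluster 0 had 169 and 28.0 with PBS and 36.8 and 44.1 with spermidine, a log2 fold change of -1.43 (SE 0.563), edgeR adjusted p 0.937, which turned to 0.51 without PBS replicate 1. In cluster 0 Il25 was -2.05 without PBS replicate 2 and -1.38 without spermidine replicate 1. Cluster 2 had 114 and 153 with PBS and 41.8 and 179 with spermidine, a log2 fold change of -0.34 (SE 0.395), edgeR adjusted p 0.889, which turned to 0.49 without spermidine replicate 1. The clusters called 0 of 5910 genes (0%) in cluster 0, 5 of 10445 (0.0479%) in cluster 1, 0 of 8346 (0%) in cluster 2 and 8 of 7662 (0.104%) in cluster 13. At an unadjusted edgeR p under 0.05 there were 300 genes in cluster 0 and 657 in cluster 2, and DESeq2 called 0 and 1. The treatment effect itself was compared among the 4 clusters by an interaction term: 0 of 10168 genes were called (0%), 470 had an unadjusted edgeR p under 0.05, and Il25 had an edgeR adjusted p of 0.9999. For the other members the 4 cluster values of Alox5 ran from -0.26 to -0.12, those of Alox5ap from -0.38 to -0.14 and those of Hpgds from 0.11 to 0.33. Alox5ap in cluster 13 turned to 0.20 without spermidine replicate 1, and Hpgds in cluster 2 to -0.11 without PBS replicate 1. Ptgs1 ran from -0.75 in cluster 13 to -0.03 in cluster 2, and Ltc4s and Chat had both signs. In cluster 13 without spermidine replicate 2, Ptgs1 was -1.49 and Alox5ap -1.09, and without spermidine replicate 1 Ptgs1 was -0.21. In cluster 0 Alox5ap was -0.77 without spermidine replicate 1 and -0.07 without spermidine replicate 2.

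**Figure D5:**
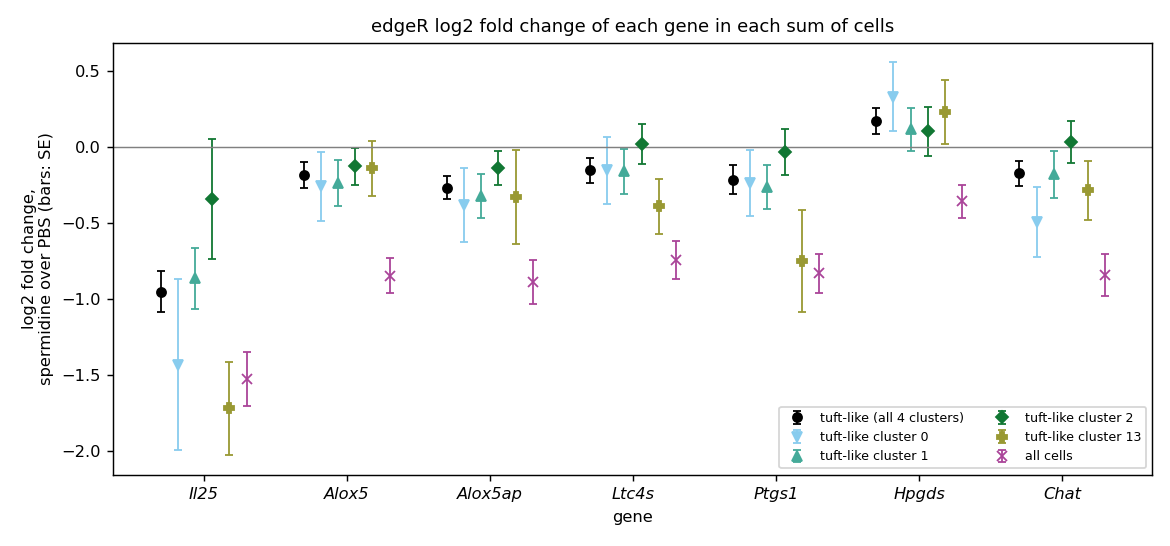
edgeR log2 fold change of spermidine over PBS (y axis, bars are the standard error) for each gene (x axis) in the summed tuft-like class, its 4 clusters and all cells. Il25 lies at -0.95 in the tuft-like sum and at -1.72 to -0.34 in the clusters, the other genes lie at -0.26 to 0.17 in the tuft-like sum, and in all cells every gene lies below 0, from -1.52 to -0.35.

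Over all assigned cells the 7 genes were lower in both spermidine samples, and so was the tuft-like share of cells. Il25 was at 40.1 and 33.6 with PBS and 10.6 and 14.5 with spermidine, a log2 fold change of -1.52, and the other genes ran from -0.88 for Alox5ap to -0.35 for Hpgds. None passed the threshold in the fit over all 4 samples, with edgeR adjusted p from 0.200 to 0.263. Of 21605 genes 0 (0%) were called in this sum, while 3265 had an unadjusted edgeR p under 0.05. Without PBS replicate 2 the 7 genes ran from -1.63 for Il25 to -0.44 for Hpgds. Without spermidine replicate 1 they ran from -1.30 for Il25 to -0.25 for Hpgds. In this sum fewer tuft-like cells and less RNA per cell cannot be told apart, and sorting and pooling can also set the tuft-like share.

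Genes around the 7 in the same pathways did not pass the test. Of the other genes of arachidonate release and leukotriene synthesis 9 were tested, with 4 above and 5 below 0 and a median log2 fold change of -0.03. Among them Mgst3, a microsomal glutathione transferase, was at 364 ± 16.6 CPM (SD, n = 4), Pla2g4a, the cytosolic phospholipase that frees arachidonic acid, at 206 ± 12.97, Abcc1, which exports leukotriene, at 42.3 ± 2.93 and Lta4h, which makes the other kind of leukotriene, at 24.0 ± 2.80. The summed level of all 26 genes of that list that were counted, tested or not, was 711 and 746 with PBS and 716 and 727 with spermidine. The groups overlapped in that sum.

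Of the other prostanoid genes 11 were tested, with 7 above and 4 below 0 and a median of 0.07. Ptgds, the other prostaglandin D synthase, had a log2 fold change of 0.78 (SE 0.151) with an edgeR adjusted p of 0.107. Ptges3 was at 165 ± 9.48 CPM (SD, n = 4), Ptgds at 54.9 ± 18.4, Abcc4, a prostaglandin exporter, at 31.4 ± 3.87 and the uptake transporter Slco2a1 at 27.3 ± 6.09. Of the acetylcholine genes 6 were tested, 3 on each side, with a median of -0.11. Acly, which supplies acetyl-CoA, was at 118 ± 4.02, and the choline transporter-like genes Slc44a1, Slc44a2 and Slc44a4 at 92.4 ± 10.2, 50.8 ± 7.15 and 18.3 ± 3.58. Slc5a7, the high-affinity choline transporter of nerves, had 1 UMI in all tuft-like cells. Of the genes of the IL-25 receptor and type 2 circuit 11 were tested, 7 above and 4 below 0, with a median of 0.12. The receptor gene Il17rb was at 145 ± 8.20, its log2 fold change was -0.11 and its edgeR adjusted p 0.733. Il13ra1 was at 169 ± 6.87, Il4ra at 125 ± 7.38 and Cd300lf at 66.0 ± 6.69. No gene of these 4 lists was called by edgeR, and 3 of the prostanoid list and 1 of the IL-25 list had an unadjusted p under 0.05.

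Some genes followed the members' pattern over the 18 clusters closely. By Pearson correlation of log2(CPM + 1) over the clusters, among 16420 genes, Il25 was most like Gng13 (0.975), Prss53 (0.969) and Avil (0.967), and Gng13 and Avil are tuft markers. Chat was most like Avil (0.976), Itprid1 (0.972) and Gm12446 (0.971), and Alox5 like Itprid1 (0.975), Avil (0.972) and Chat (0.964). Ptgs1 was most like Gm8185 (0.972), Rgs13 (0.961) and Vav1 (0.959). For Alox5ap the values of Cd180 (0.947) and Daglb (0.946) were among the 3 highest. Ltc4s was most like Slc22a21 (0.937), Pcdh19 (0.920) and Lncenc1 (0.917), and Hpgds like Matk (0.929), Card19 (0.917) and Capns1 (0.904). The clusters share 1 droplet run and its free RNA, so these values are a description.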

How the data were processed

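Single-cell RNA was read with 10x Genomics 3′ v3 chemistry from 1 pooled run of 4 hashed samples. The authors deposited raw UMI counts per gene and barcode and antibody counts per hashtag. The file headers name Cell Ranger 7.1.0 as their source. The submitters' processing notes name mm10, bcl2fastq and Seurat. The count matrix held 12139 barcodes, 55487 genes and 158263030 UMIs. Of these, 8534 barcodes with at least 1000 UMIs, 500 genes and under 15% mitochondrial UMIs were kept.

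Cells were assigned with HTODemux (Seurat 5.3.0, positive quantile 0.99) over the 6 hashtags that stain cells. This gave 3739 cells of the 4 labelled samples, 1831 doublets and 532 negatives. Using only the 4 labelled hashtags, 880 of the 4705 assigned cells were doublets by the 6, so the 6 were used. The cells of HT6 and HT7, which no label maps to a sample, were left out of every comparison. Hashtag doublets were removed and no caller on RNA was run, so doublets within a sample remain.

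Clustering used scanpy 1.11.5 (counts per 10000, 2000 variable genes, 30 components, 15 neighbours, Leiden resolution 1) and left the members out of the variable genes. Clusters were named from marker lists, and 3 stayed unnamed. Counts were summed per hashed sample and tested with edgeR 4.0.16 in R 4.3.3 (quasi-likelihood test, TMM, minimum count 10, Benjamini-Hochberg threshold 0.05). DESeq2 1.42.0 was an alternative, and the others concerned normalization, filters, assignment, clustering, capping and single samples. The edgeR step was tested on simulated data. Shares of cells used exact permutation tests (scipy 1.17.1). Intervals cover counting error only.

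The members and lists were chosen with earlier results of these data known. The genes named are the members, the 4 most abundant and any called genes of each pathway list, the 3 most like each member (1 of those for Alox5ap is not reported here), and the 3 smallest p in each direction. Others named were chosen after their values were seen. Gene IDs matched GENCODE M21 for 54435 of 55487. Same-numbered replicates shared only a number: their deviations correlated at 0.0450 over 8182 genes.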

Additional observations from a re-analysis of the deposited data

How the results depend on the processing

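In tuft-like cells the direction of all 7 genes held under every alternative run, and 85 of the 91 values that came with a test kept their side of the threshold. The 12 called genes became 22 with DESeq2, 342 with no filter on low counts, 19 with a margin rule for hashtags, 3 with a mitochondrial limit of 10%, 28 with capped counts and 55 with the replicate block, under which Il25 was -0.96 with an edgeR adjusted p of 0.00243. With the replicate block no member's call changed. With no filter Alox5ap was -0.29 with an edgeR adjusted p of 0.00469, and at the 10% limit Il25 was -1.07 with 0.0649. With the 4-hashtag assignment Il25 was -0.65 with 0.0418. Added after seeing the data, equal weights for the 4 clusters gave Il25 -0.99, and cells thinned to 5000 UMIs gave -0.95. DESeq2 called 14 genes in cluster 1, 1 in cluster 2 and 13 in cluster 13. Leaving out 1 sample at a time, where the lone sample is assumed to vary like the other group, gave 26 to 486 called genes in tuft-like cells, 0 to 699 in all cells, 22 to 81 in cluster 0, 79 to 197 in cluster 1, 0 to 40 in cluster 2 and 0 to 216 in cluster 13. The same fits gave log2 fold changes in tuft-like cells of -1.13 to -0.77 for Il25, -0.31 to -0.22 for Alox5ap, -0.31 to -0.12 for Ptgs1, -0.29 to -0.08 for Alox5, -0.22 to -0.10 for Ltc4s, -0.23 to -0.12 for Chat and 0.07 to 0.27 for Hpgds. In all cells they gave -1.76 to -1.30 for Il25, -0.97 to -0.71 for Alox5, -1.05 to -0.69 for Alox5ap, -0.89 to -0.59 for Ltc4s, -0.96 to -0.71 for Ptgs1 and -1.01 to -0.64 for Chat. Single clusters turned sign in 9 of 140 values, which the same fits spread over these ranges: -2.05 to 0.51 for Il25 and cluster 0, -1.09 to 0.20 for Alox5ap and cluster 13, and for cluster 2 -1.61 to 0.49 for Il25, -0.11 to 0.16 for Ltc4s, -0.25 to 0.18 for Ptgs1, -0.11 to 0.33 for Hpgds and -0.038 to 0.11 for Chat. The difference in the share of cells with Alox5ap ran from -3.41 to 0.49 percentage points. The cause of these changes was not tested. With 2 samples a group the exact test cannot go below 0.3333, and tuft-like clusters of 24 to 156 cells a sample limit the cluster values.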

Other observations

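The pool held 2 further stained hashtags, HT6 and HT7, which no label maps to a sample. HT6 had 1227 cells, 432 of them tuft-like (35.2%), and HT7 had 1205, 365 of them tuft-like (30.3%). In the tuft-like cells of HT6 and HT7, Il25 was at 106 and 94.9 CPM. Alox5 was at 582 and 613, Alox5ap at 1113 and 1021 and Ltc4s at 583 and 625. Ptgs1 was at 355 and 356, Hpgds at 288 and 310 and Chat at 320 and 268. Treatment and origin of these cells were not given, so the values enter no comparison.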
